A study of Mus musculus with 2 samples.

Results

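The Iroquois genes lie in 2 clusters of the mouse genome, Irx1, Irx2 and Irx4 on chromosome 13 and Irx3, Irx5 and Irx6 on chromosome 8. Open chromatin was described at all 6 genes and across both clusters, out to 100 kb beyond the outermost gene, from DNase-seq peaks and hotspots of embryonic hindbrain. DNase-seq maps the sites where chromatin is open enough for the nuclease DNase I to cut. A peak was assigned to a promoter when its midpoint lay within 1 kb of any transcription start site (TSS) of GENCODE M21 basic, and was called distal when it lay farther from every TSS. The cluster windows held 486 of 263679 peaks in replicate 1 and 260 of 148804 in replicate 2. Hotspots are wider stretches where cutting was enriched, and the windows held 399 of 231347 in replicate 1 and 237 of 133205 in replicate 2. The study has 1 group of 2 biological replicates, hindbrain tissue of strain B6NCrl embryos at embryonic day 14.5, with male and female embryos pooled. The labels name no treatment, other tissue or other stage. The labels list separate tissue samples for the libraries under the same donor record, and do not say whether they came from separate litters.

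Iroquois proteins are transcription factors of the TALE homeobox class, in which extra residues lengthen the homeodomain. In vertebrates the clusters arose by duplication, so that Irx1 and Irx3, Irx2 and Irx5, and Irx4 and Irx6 occupy matching places. The genes help to divide the neural tube into domains, and in chick Irx2 acts in the formation of the cerebellum, a structure of the anterior hindbrain.

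The promoter peaks of highest rank that carried no annotated UTR base are shown first, those of Irx1, Irx2 and Irx6. The promoter calls of these genes rest on them. The highest-ranked promoter peaks of Irx3, Irx4 and Irx5 overlap a UTR and are not shown. All sequences are the plus strand of GRCm38.p6 (mm10 coordinates) from RefSeq. Capitals mark matches to the motifs searched, TCF-LEF (ATCAAAG) at Irx1 and an E-box (CATCTG) at Irx2, both read on the minus strand.
Irx1 promoter peak (chr13:71963736-71963885): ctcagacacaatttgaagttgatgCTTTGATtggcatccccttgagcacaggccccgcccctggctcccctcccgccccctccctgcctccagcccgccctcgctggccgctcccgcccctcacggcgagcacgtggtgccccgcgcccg
Irx2 promoter peak (chr13:72628636-72628785): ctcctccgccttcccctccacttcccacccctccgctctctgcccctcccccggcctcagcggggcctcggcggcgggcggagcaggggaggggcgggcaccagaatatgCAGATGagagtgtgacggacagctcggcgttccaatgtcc
Irx6 upstream peak (chr8:92673636-92673785): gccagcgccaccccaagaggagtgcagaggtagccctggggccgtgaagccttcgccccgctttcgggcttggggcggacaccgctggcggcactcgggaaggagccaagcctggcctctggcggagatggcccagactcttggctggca

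The 3 distal shared peaks of highest mean score rank in each cluster are shown next, because they are the strongest shared sites away from promoters. Capitals mark an E-box (CAGCTG) upstream of Irx4 and, between Irx2 and Irx4, a MEIS site (TGACAG) and a SOX site (ACAATG, minus strand). Downstream of Irx6 they mark an E-box (CATCTG, minus strand), a MEIS site and an E-box (CAGCTG) that follows it at once. In the Irx5 intron they mark an IRX site (ACANNTGT), and between Irx3 and Irx5 a POU site (ATGCAAAT). No letters of the searched motifs occurred in the peak between Irx1 and Irx2.
Distal peak upstream of Irx4 (chr13:73160456-73160605): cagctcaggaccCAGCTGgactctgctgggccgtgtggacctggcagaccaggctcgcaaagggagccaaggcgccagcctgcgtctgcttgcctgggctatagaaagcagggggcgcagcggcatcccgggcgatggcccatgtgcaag
Distal peak between Irx1 and Irx2 (chr13:72292596-72292745): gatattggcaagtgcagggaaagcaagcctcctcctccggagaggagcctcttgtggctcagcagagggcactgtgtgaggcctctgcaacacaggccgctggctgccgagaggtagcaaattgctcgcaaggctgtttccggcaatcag
Distal peak between Irx2 and Irx4 (chr13:73034576-73034725): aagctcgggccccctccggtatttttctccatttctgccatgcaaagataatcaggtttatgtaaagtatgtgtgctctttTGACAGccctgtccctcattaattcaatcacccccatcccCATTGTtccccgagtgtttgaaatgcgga
Distal peak downstream of Irx6 (chr8:92721656-92721805): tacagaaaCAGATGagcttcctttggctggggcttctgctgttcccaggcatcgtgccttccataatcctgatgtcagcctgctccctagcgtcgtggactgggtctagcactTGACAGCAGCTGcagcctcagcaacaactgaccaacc
Distal peak in an Irx5 intron (chr8:92362116-92362265): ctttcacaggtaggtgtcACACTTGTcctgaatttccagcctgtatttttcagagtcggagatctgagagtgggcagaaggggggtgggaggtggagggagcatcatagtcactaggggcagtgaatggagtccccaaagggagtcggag
Distal peak between Irx3 and Irx5 (chr8:92134176-92134325): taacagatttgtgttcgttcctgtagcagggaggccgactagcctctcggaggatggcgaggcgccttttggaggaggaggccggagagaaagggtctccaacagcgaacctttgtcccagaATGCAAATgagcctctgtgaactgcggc

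All 6 Irx promoters carried a peak in each library, and at all 6 a peak of one library overlapped a peak of the other by at least 1 bp. Such peaks are called shared. Genome-wide, a shared promoter peak was found at 64.6% of 21938 protein-coding genes, and any promoter peak at 69.9% in replicate 1 and 65.7% in replicate 2. CpG-rich promoters are open in most tissues, so the Irx genes are read against promoters of like CpG content. Among 10 equal classes of CpG observed/expected ratio, Irx1 and Irx2 fell in class 10, Irx4 in class 9, Irx5 in class 8, and Irx3 and Irx6 in class 6. A shared promoter peak was present in 98.2%, 98.0%, 96.6% and 90.1% of genes of those classes, so 6 of 6 was close to what the classes hold. The members' promoter score is the score of the highest promoter peak, a whole number per 150 bp peak that never passes 150 and whose meaning is not given in the sources used here. Scores were set side by side between libraries by percentile among all peaks of the same library.

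Irx2 had the highest promoter score in each library, 133 in replicate 1 and 90 in replicate 2. Both values belong to the peak shown above, 109 bp upstream of the TSS in replicate 1, at the 97.5th percentile of replicate 1 and the 93.8th of replicate 2. Irx5, which shapes the repolarization gradient of the mouse heart and acts in retinal bipolar cells, came second with 122 and 79. Its peak lay 22 bp past the TSS, at the 95.8th and 91.0th percentiles. Irx2 and Irx5 thus held the first places in both libraries.

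Irx3, which in chick and mouse neural tube limits the Olig2 domain of motor neuron progenitors, had a highest score of 116 in replicate 1 and of 58 in replicate 2. These came from neighbouring peaks, one 16 bp and the other 384 bp past the nearest annotated Irx3 TSS by the replicate 1 midpoints. The first scored 116 and 54, the second 108 and 58. Irx1, which is expressed in the developing hindbrain of mouse embryos, had 102 and 59 at the peak 88 bp upstream of its TSS. Irx6, known from retinal bipolar cells, had 88 and 60. Irx3, Irx1 and Irx6 followed that order in replicate 1 and the reverse, Irx6, Irx1 and Irx3, in replicate 2, where their scores lay between 58 and 60, so the replicates do not separate them.

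Irx4, which specifies ventricular identity in heart muscle, had the lowest promoter score in both libraries, 64 in replicate 1 and 35 in replicate 2. Its peak had the same position in both libraries, 34 bp past the TSS, at the 70.2nd and 60.4th percentiles. The hotspot over the Irx4 TSS was 286 bp long in replicate 1, with a −log10 q-value of 5.22, and 128 bp long in replicate 2, with a −log10 q-value of 2.00. The tissue is bulk, so a low score from fewer cells with an open site and from weaker opening in each cell cannot be told apart.

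**Figure D1:**
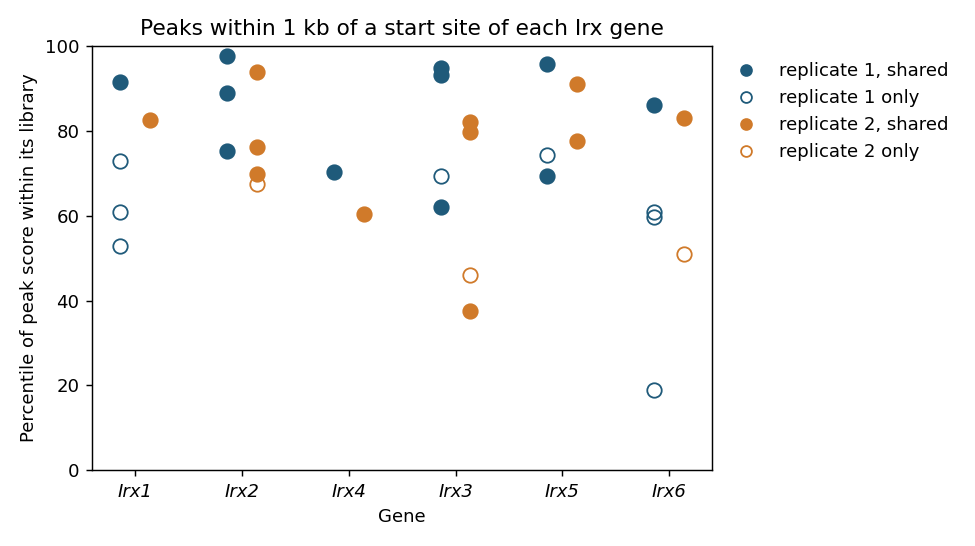
Peaks within 1 kb of a start site of each Irx gene, as the percentile of the peak score within its library (y axis). Filled points are shared peaks and open points are peaks of 1 library. Irx2 has the highest point of each library, and the shared peak of Irx4 lies at the 70.2nd and 60.4th percentiles.

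Against other genes with a promoter peak, Irx scores were not high. The median best promoter score was 128 among 15334 genes in replicate 1 and 95 among 14406 genes in replicate 2. Irx2, at 133, was the one member above the median in replicate 1, and no member was above it in replicate 2. Irx4 lay above 11.6% of these genes in replicate 1 and 8.28% in replicate 2, and Irx2 above 58.2% and 43.1%.

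The members differed in how many peaks their promoters held. In all, 11 of 19 promoter peaks in replicate 1 and 11 of 14 in replicate 2 were shared. Irx2 and Irx3 had 3 shared promoter peaks each, Irx5 had 2, and Irx1, Irx4 and Irx6 had 1. At Irx1 and at Irx6, 3 of 4 promoter peaks of replicate 1 had no partner in replicate 2. The shared Irx6 peak lay 577 bp upstream of its TSS. The 2 replicate 1 peaks within 150 bp of an Irx6 TSS, which scored 55 and 54, were absent from replicate 2, and with a promoter window of 500 bp Irx6 had no shared peak.

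By the mean of the 2 libraries, hotspots at 5 of the 6 promoters covered more sequence than at the median protein-coding gene. That median includes genes without a promoter peak, unlike the score comparison above. Within 2500 bp of the TSS the hotspots covered a mean over the 2 libraries of 3603.5 bp at Irx2, 3438 bp at Irx5, 2391.5 bp at Irx1, 1971 bp at Irx3 and 1036.5 bp at Irx6, against a median of 956 bp over all protein-coding genes. Irx4, at 522.5 bp, was below that median. The replicates differed widely in this length. Irx5 had 5121 bp in replicate 1 and 1755 bp in replicate 2, and Irx2 had 4027 bp and 3180 bp. Irx6 had 1546 bp and 527 bp, so its place above the median rests on the mean. Medians of each library were not taken. The Irx5 stretch also takes in the start of the non-coding gene Crnde, 1794 bp from that of Irx5. Part of a 2209 bp replicate 1 hotspot there (chr8:92354907-92357115) counts toward the 5121 bp. The stretches of Irx2 and Irx3 likewise hold the starts of the non-coding genes Gm20554 and Irx3os. The longest hotspot of the chromosome 13 cluster spanned 4120 bp over the Irx1 gene body and past its end in replicate 1 (chr13:71957112-71961231), and that of the chromosome 8 cluster spanned 2624 bp from just upstream of the Irx5 TSS into the gene (chr8:92357117-92359740). In replicate 2 the longest was 1273 bp at Irx2 and 999 bp in the chromosome 8 cluster.

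Away from promoters, 5 of the 6 Irx genes had more shared peaks than the median gene, and Irx6 had as many. Within 50 kb of its TSS Irx2 had 17 distal shared peaks, Irx3 had 11, Irx1 had 10, Irx4 had 8, Irx5 had 6 and Irx6 had 3. The members' median was 9, against a median of 3 and quartiles of 1 and 6 over all protein-coding genes. For the marker genes described below, the median was 11.5 for neural, 9 for heart muscle and 8 for hindbrain markers. It was 4.5 for meninges and mesenchyme and 3 for liver. The heart muscle markers thus matched the members' median, although 1 of 6 had a shared promoter peak. Among all protein-coding genes, with ties given their mean rank, Irx2 stood at the 99.4th percentile and Irx6 at the 47.7th. The members are far enough apart that none of these peaks was counted for more than 1 of them.

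The distal peaks of Irx2 lay close to the gene. All 17 of its distal peaks within 50 kb were also within 20 kb, and Irx1 had 9 of 10 there. Irx3 had 7 within 20 kb and 25 within 100 kb. Around Irx5, 28 distal peaks of replicate 1 and 8 of replicate 2 left 6 shared. Irx2 had 29 and 23, Irx1 27 and 16, Irx3 22 and 13, Irx4 20 and 15, and Irx6 8 and 3, against gene medians of 8 and 4. Irx2 had the most distal peaks in each library and Irx6 the fewest, while Irx5 came next after Irx2 in replicate 1 and stood above Irx6 alone in replicate 2.

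**Figure D2:**
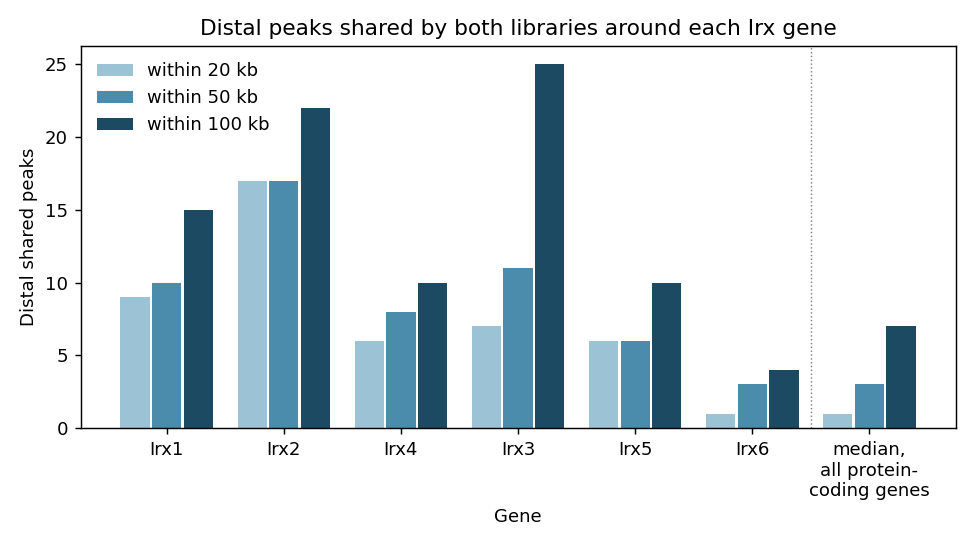
Number of distal shared peaks (y axis) within 20, 50 and 100 kb of each Irx gene, beside the median over all protein-coding genes. Irx2 has 17 within both 20 and 50 kb, Irx3 reaches 25 within 100 kb, and Irx6 has 4, below the gene median of 7.

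Across the whole Irx1/Irx2/Irx4 window (chr13:71857921-73369608, 1512 kb) replicate 1 had 257 peaks and replicate 2 had 145. Of these, 103 were shared in replicate 1 (40.1%, 95% Wilson interval 34.3% to 46.2%) and 107 in replicate 2 (73.8%, 66.1% to 80.3%). Across the Irx3/Irx5/Irx6 window (chr8:91698525-92780956, 1082 kb) the counts were 229 and 115, with 93 shared in replicate 1 (40.6%, 34.5% to 47.1%) and 96 in replicate 2 (83.5%, 75.6% to 89.2%). Genome-wide, 42.4% of replicate 1 peaks and 77.1% of replicate 2 peaks were shared, and all 4 intervals hold the genome's value. The intervals cover counting error only. Shared peaks were denser in the clusters, 6.81 per 100 kb in the chromosome 13 window and 8.59 in the chromosome 8 window, against 4.22 for the genome, all by replicate 1 positions. Of the shared peaks, 93 of 103 were distal on chromosome 13, 76 of them between genes, and 78 of 93 on chromosome 8, 52 between genes.

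Hotspots also took up more of the clusters than of the genome. They covered 5.58% of the chromosome 13 window and 6.74% of the chromosome 8 window in replicate 1, against 3.08% of the genome, and 2.52% and 2.31% in replicate 2, against 1.58%. In replicate 1, 42.2% and 41.5% of the hotspots of these windows overlapped one of replicate 2, against 41.6% genome-wide. In replicate 2 the shares were 86.8% (79.9% to 91.6%) and 96.3% (90.9% to 98.6%), against 84.8%, so that the second interval lay above the genome's share. Replicate 1 had 1.77 times as many peaks as replicate 2 in the chromosome 13 window and 1.99 times in the chromosome 8 window, against 1.77 genome-wide. For hotspot length the ratios were 2.21 and 2.92, against 1.94. Read counts are not in the files, and library depth is unknown.

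**Figure D3:**
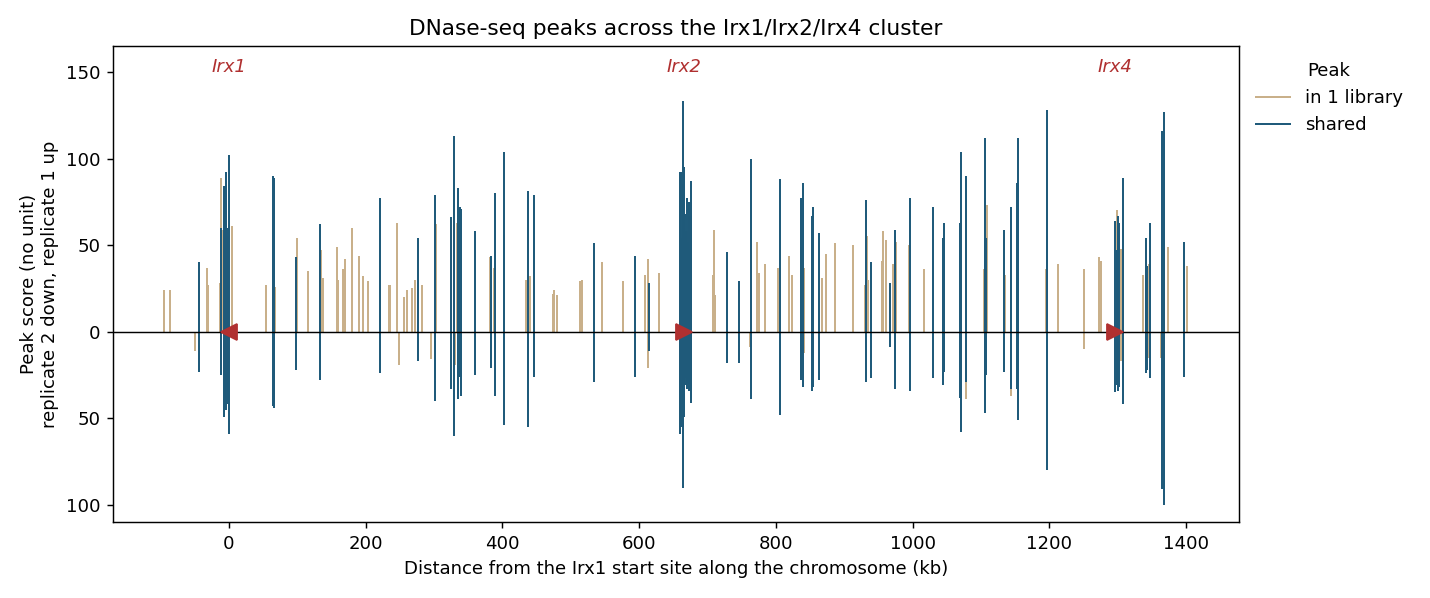
DNase-seq peaks across the Irx1/Irx2/Irx4 cluster by distance from the Irx1 start site (x axis, kb). Lines rise to the score in replicate 1 and fall to the score in replicate 2, dark for shared peaks and light for peaks of 1 library, and triangles mark each TSS and its direction. Shared peaks crowd at Irx2, and 100 kb without a shared peak separates the tall distal peak from Irx4.

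The shared peaks of the chromosome 13 cluster were densest per kb at the genes, although most lay between them. The densest 50 kb was at Irx2, where 20 shared peaks fell within 16.2 kb (chr13:72624091-72640331, by peak midpoints). The Irx1 gene body of 5.80 kb held 6 shared peaks in replicate 1, the Irx2 gene body of 5.38 kb also held 6, and the Irx4 gene body of 9.13 kb held 4. The interval from Irx1 to Irx2, 665 kb long, held 34, which is 5.11 per 100 kb, and the 626 kb from Irx2 to Irx4 held 39, or 6.23 per 100 kb.

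The strongest distal peak of the cluster lay 99948 bp upstream of the Irx4 TSS (chr13:73160456-73160605), with scores of 128 and 80, at the 96.8th and 91.3rd percentiles. Between it and the Irx4 promoter peak lay 100 kb without a shared peak, the longest such stretch of the window. The next was chr13:72292596-72292745, with 113 and 60, which lay 328948 bp upstream of Irx1 and 57.5 kb from the nearest TSS of any gene. The peak at chr13:73034576-73034725 scored 104 and 58 and lay 225828 bp upstream of Irx4. All 3, picked for their high rank, outscored the Irx4 promoter, the lowest-scoring member promoter, in both libraries.

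**Figure D4:**
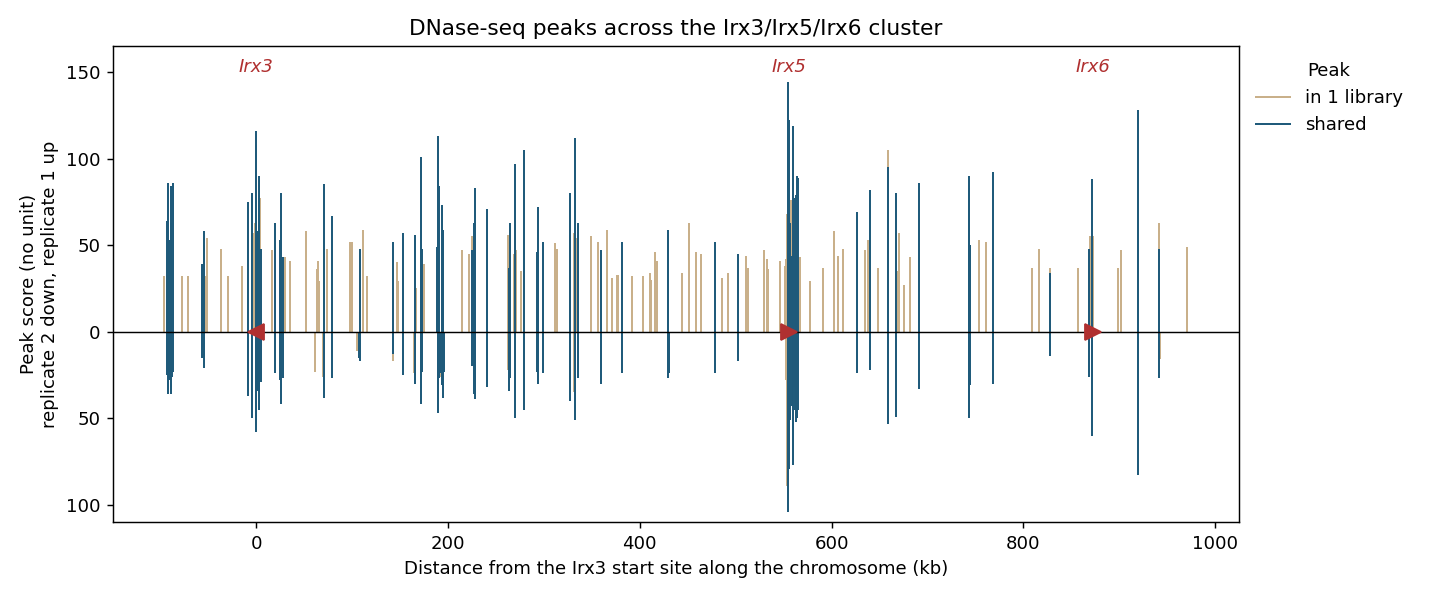
DNase-seq peaks across the Irx3/Irx5/Irx6 cluster by distance from the Irx3 start site (x axis, kb), drawn as for the Irx1/Irx2/Irx4 cluster. Shared peaks are spread over the interval from Irx3 to Irx5 (9.54 per 100 kb) and are sparse beyond Irx5 (4.03 per 100 kb).

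In the chromosome 8 cluster the shared peaks were uneven along the map. The 556 kb from Irx3 to Irx5 held 53, or 9.54 per 100 kb, and the 100 kb outside Irx3 held 16. The 298 kb from Irx5 to Irx6 held 12, or 4.03 per 100 kb, the 100 kb outside Irx6 held 2, and the Irx6 gene body held 0. The densest 50 kb was at Irx3, with 16 shared peaks in 35.8 kb (chr8:91794031-91829791). The longest stretch without a shared peak was 61.2 kb, from inside the annotated Irx5 gene to beyond its end (chr8:92366871-92428031). Irx6 thus had the fewest distal shared peaks of the 6 genes within 20, 50 and 100 kb and the one gene body without a shared peak, while its promoter score was above that of Irx4.

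The strongest distal peak of that cluster lay 46905 bp past the Irx6 TSS (chr8:92721656-92721805), in the sparse part, with scores of 128 and 83 at the 96.8th and 92.1st percentiles. The second lay in an intron of the longer annotated Irx5 transcript, 4442 bp past its TSS (chr8:92362116-92362265), with 119 and 77. The third lay 223374 bp upstream of Irx5 (chr8:92134176-92134325), with 112 and 51. The first, picked for its high rank, exceeded the Irx6 promoter, at 88 and 60, in both libraries.

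Peaks of 1 library could also score high. In the chromosome 8 window the highest private peak of replicate 2 scored 89 at the promoter of Crnde (chr8:92355896-92356045), 200 bp from a shared peak of replicate 2. The highest of replicate 1 scored 105 (chr8:92460736-92460885), 440 bp from a shared peak of replicate 1. In the chromosome 13 window the highest was 89 in replicate 1, 11552 bp past the Irx1 TSS (chr13:71952096-71952245) and 460 bp from a shared peak, and 40 in replicate 2, 691 bp past the Irx2 TSS (chr13:72629436-72629585) and 300 bp from a shared peak. All 4 thus lay close to a shared peak of their own library.

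Shared peaks kept much of their order between libraries. Over 196 shared peaks of both windows scores correlated with a Spearman coefficient of 0.739 and a Pearson coefficient of 0.818, against 0.857 and 0.879 over 111722 shared peaks of the genome. These are descriptions across peaks of the same 2 libraries. The score was higher in replicate 1 for 196 of 196, as for 110988 of 111722 genome-wide, so scores of the libraries are set side by side and not averaged. Peaks high in their library were mostly shared. Among peaks at or above the 75th percentile of their library 90.6% of the clusters' replicate 1 peaks and 94.1% of their replicate 2 peaks were shared, against 91.0% and 98.0% genome-wide. Among those below the 25th percentile 3.85% and 47.1% were shared, against 8.30% and 40.0%.

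**Figure D5:**
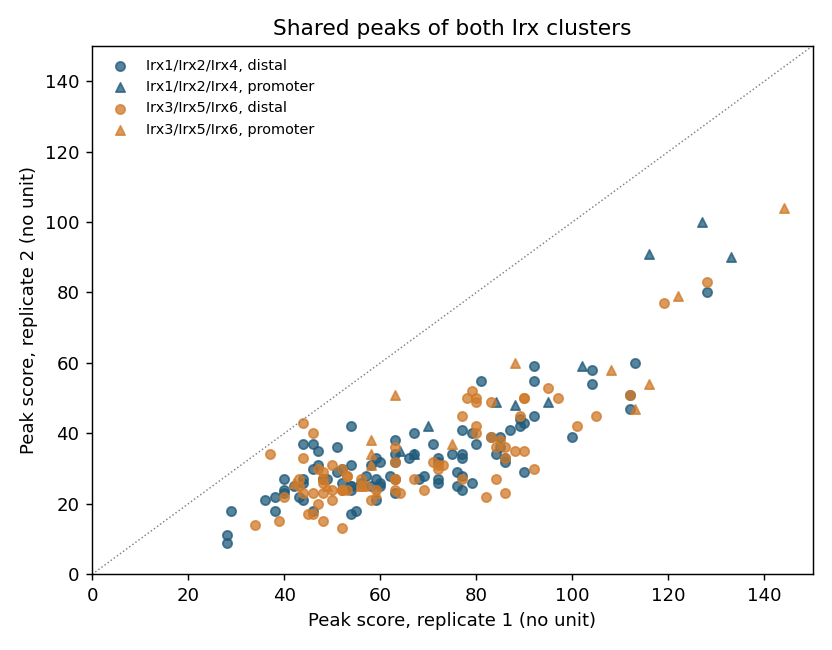
Scores of the 196 shared peaks of both Irx clusters in replicate 1 (x axis) and replicate 2 (y axis), no unit, with triangles for promoter peaks and the line of equal scores dotted. All points lie below the line, and the highest is the Crnde promoter peak at 144 and 104.

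Non-coding genes share the clusters. The windows hold 39 annotated genes, of which 20 are long non-coding, and 10 of these 20 had a shared promoter peak, against 31.6% of 9603 long non-coding genes of the genome. At 3 of them the TSS lies within 2500 bp of an Irx TSS, so their promoter peaks are not independent of the members'. Gm20554 starts 256 bp from Irx2 and has the same highest peak, 133 and 90. Irx3os starts 108 bp from Irx3 and likewise has its peaks. Crnde, transcribed away from Irx5 from a basic-set TSS 1794 bp off, had the highest promoter score of either window, 144 and 104, above the 122 and 79 of Irx5.

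The rest of the non-coding genes lay farther from the members. Gm36670, between Irx3 and Irx5, had promoter scores of 113 and 47, and Gm47902, between Irx2 and Irx4, had 88 and 48. Gm40999, which starts 7171 bp past the Irx1 TSS, had 84 and 49. Outside the family the windows hold 2 protein-coding genes, Ndufs6, a subunit of mitochondrial complex I, with 116 and 91, and Mrpl36, a mitochondrial ribosomal protein, with 127 and 100, both beyond Irx4.

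Fto, an RNA demethylase gene whose introns hold elements that contact Irx3 in other tissues, lies 130 kb from the Irx3 gene (chr8:91313525-91668439). Its body held 74 peaks in replicate 1 and 27 in replicate 2. Of the replicate 1 peaks 22 were shared, 20 of them distal, which is 6.20 shared peaks per 100 kb, between the chromosome 8 window at 8.59 and the genome at 4.22. The strongest of the 20 lay in an intron (chr8:91378896-91379045), 420 kb from Irx3, with scores of 115 and 82. The next, chr8:91488236-91488385, had 85 and 58. Contacts were not measured here.

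Motif letters were counted in the 171 distal shared peaks of both windows, on either strand, against 81031 distal shared peaks of the genome. The median GC content was 50% in both sets, and repeats made up 4.83% of the clusters' peaks and 8.43% of the genome's. The homeodomain core TAATTA occurred in 24 of the 171 peaks (14.0%, Wilson interval 9.62% to 20%), against 6.85% genome-wide. The POU octamer ATGCAAAT occurred in 8 (4.68%, 2.39% to 8.96%), against 1.78%. For these the interval lay above the genome's value, but 12 of the 171 peaks overlap another of them and can count the same letters, and 14 motifs were searched.

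The palindromic IRX motif ACANNTGT, which Iroquois proteins bind, occurred in 11 of the 171 peaks (6.43%, 3.63% to 11.2%), against 5.20%, a value inside the interval. These held 11 distinct matches, 8 in the Irx1/Irx2/Irx4 cluster and 3 in the Irx3/Irx5/Irx6 cluster. The letters overlap those of other motifs, since CATCTG and CAGCTG fit inside ACANNTGT. A match to a searched E-box form (CAGCTG or CATCTG) overlapped 4 of the 11 matches and a TAATTA match overlapped 1. All 11 hold the general E-box letters CANNTG, which lie inside ACANNTGT, so the count of 4 does not set the others apart from E-boxes. The peaks below are shown because they hold an IRX match together with TAATTA or with a second IRX match. A further peak 100 bp on from the one upstream of Irx1 holds the same letters and is not shown.
Peak downstream of Irx1 (chr13:71919756-71919905): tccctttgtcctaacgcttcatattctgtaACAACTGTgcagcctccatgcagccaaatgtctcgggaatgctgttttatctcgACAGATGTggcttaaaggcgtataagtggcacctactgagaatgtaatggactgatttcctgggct
Peak upstream of Irx1 (chr13:72029016-72029165): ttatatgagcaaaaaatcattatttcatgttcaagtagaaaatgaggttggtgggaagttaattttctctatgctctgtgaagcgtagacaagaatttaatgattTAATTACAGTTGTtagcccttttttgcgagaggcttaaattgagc
Peak between Irx1 and Irx2 (chr13:72347076-72347225): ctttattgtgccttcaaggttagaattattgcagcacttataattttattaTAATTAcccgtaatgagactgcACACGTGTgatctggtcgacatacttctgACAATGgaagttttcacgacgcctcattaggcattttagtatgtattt
Peak upstream of Irx2 (chr13:72578276-72578425): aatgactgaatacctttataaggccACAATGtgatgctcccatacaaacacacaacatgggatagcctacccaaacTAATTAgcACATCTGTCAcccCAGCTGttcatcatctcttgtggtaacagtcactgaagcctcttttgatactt
Peak upstream of Irx3 (chr8:92071776-92071925): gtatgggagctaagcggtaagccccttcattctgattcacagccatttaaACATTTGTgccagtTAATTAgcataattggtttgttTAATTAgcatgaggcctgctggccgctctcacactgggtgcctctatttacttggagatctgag

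Downstream of Irx1, 43892 bp past its TSS, the peak held a pair of IRX matches, the second over a searched E-box form (CATCTG), with scores of 40 and 23. Upstream of Irx1 the capitals are TAATTA and ACAGTTGT, which share 1 base, in a peak that scored 85 and 39. Between Irx1 and Irx2 they are TAATTA, an IRX match and SOX, with scores of 44 and 21. Upstream of Irx2 they are SOX, TAATTA, an IRX match over a MEIS and an E-box match, and a further E-box (CAGCTG), in a weak peak that scored 28 and 11, at the 10.7th and 4.64th percentiles. Upstream of Irx3, at 269784 bp, the capitals are an IRX match and TAATTA in 2 copies, in a peak that scored 97 and 50. A match is a description of letters and not of binding.

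For the other motifs, both CTCF consensus forms aside, the genome's share lay inside the clusters' interval. The HOX-PBX site TGATTNAT was in 5.26% (2.79% to 9.70%) against 3.35%, MEIS (TGACAG) in 14.6% (10.1% to 20.7%) against 14.3%, and TCF-LEF (ATCAAAG) in 2.34% (0.913% to 5.86%) against 2.18%. The E-box CAGCTG was in 13.5% against 16.6%, the E-box CATCTG in 16.4% against 17.7%, and SOX (ACAATG) in 5.85% against 8.71%. GLI (GACCACCCA), NFI, RFX and the retinoic acid receptor repeat were in 0 of 171, against 0.106%, 0.255%, 0.401% and 0% genome-wide. Those shares are so low that 0 of 171 could not set the clusters apart from the genome. The strict CTCF consensus was also in 0 of 171, against 2.98%, and in 1 peak by replicate 2 positions. This form fixes letters that the looser one below lets vary, so its 0 does not show that CTCF sites are absent. A count of 0 of 171 allows a share of up to 1.75% (3 peaks), with a Wilson upper limit of 2.20%. With a looser consensus, chosen after seeing the data, CTCF letters were in 8 (4.68%, 2.39% to 8.96%), against 15.4%.

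Among relatives, all 12 TALE homeobox genes listed had a shared promoter peak, beside 64.6% of all protein-coding genes. In CpG classes 6 to 10, which hold the Irx genes, the share was 90.1% to 98.2%, but the classes of these 12 genes were not compared. The 12 genes had a median of 8 distal shared peaks, beside the Irx median of 9. Counts ran from 2 at Pbx4 to 17 at Meis2, a cofactor of Hox proteins, with 13 each at Meis1 and Pbx3. Of 12 transcription factors that divide the neural tube, 7 had a shared promoter peak, 11 had a promoter peak in replicate 1 and 7 in replicate 2, and the median was 7 distal shared peaks. Of the 5 without a shared peak, Pax7 (60), Dbx1 (41), Nkx2-2 (55) and Gsx2 (46) had a promoter peak in replicate 1 alone, and Dbx2 had none in either library. The most distal shared peaks were 13 at Nkx6-1 and 12 at Gsx1. Olig2, whose domain Irx3 limits, had promoter scores of 96 and 51 and 3 distal shared peaks, beside 116, 58 and 11 at Irx3.

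The genes with the pattern most like each member were found from 4 percentile ranks over all protein-coding genes, the best promoter score in each library, the hotspot length at the TSS and the distal shared count. Likeness is the mean absolute difference over those 4 percentiles, with hotspot length taken as the mean of the 2 libraries. The nearest gene outside the windows was Serinc2 to Irx1 (0.93), Fjx1 to Irx2 (0.98), Zfp853 to Irx4 (0.78), Sh3pxd2b to Irx3 (0.92), Klf3 to Irx5 (0.14) and Ptgr1 to Irx6 (0.57). Klf3 had promoter scores of 122 and 78 and 6 distal shared peaks, and Irx5 had 122, 79 and 6.

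The tissue label was checked by promoter peaks of marker genes. Beside 64.6% of all protein-coding genes, all 9 hindbrain markers and all 4 neural markers had shared promoter peaks, and so did all 4 markers of meninges and mesenchyme. Of heart muscle markers 1 of 6 had one (Nppa), and of liver markers 0 of 3. Over all protein-coding genes the share with a shared promoter peak ran from 6.65% in CpG class 1 to 98.2% in class 10. The markers were not matched for CpG class, and the part of CpG content in these counts was not tested. Nppa scored 79 and 30, Tnnt2 had a promoter peak in replicate 1 alone (38) and Nkx2-5 in replicate 2 alone (26), while Myl2, Myl7 and Myh6 had none in either library. The part of heart muscle in the Irx4 peaks was not tested. The part of mesenchymal cells in the Irx peaks was not tested.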

How the data were processed

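DNase-seq of 2 hindbrain libraries was analysed from the peak and hotspot lists of the authors. Each list comes from 1 library's filtered reads on mm10, per the text deposited beside it. No source used here names the aligner, the peak caller or the thresholds. The deposited peak score is a whole number per 150 bp peak, and the authors' hotspots carry a −log10 q-value from 1.30 to 6.00, or 100, taken as a cap. Peaks on the 21 assembled chromosomes were kept.

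Promoter, distal and shared peaks were counted with Python 3.11.15, NumPy 2.4.6, SciPy 1.17.1 and pysam 0.24.0, against GENCODE M21 basic and GRCm38.p6. Shared sets use replicate 1 positions. Distal counts run from each gene's outermost TSS. Wilson intervals are 95%. With 1 group no comparison between conditions was made and no p-value is given. The members, lists and motifs were chosen with earlier results of these data known. Genes named are the members, every gene of the windows that bears on them, Fto, markers, the relatives without a shared promoter peak or with the most distal peaks, and the most alike gene. Olig2 and Pbx4 were named after their values were seen. Overlap counts and motif searches were tested on simulated data. Alternatives were other windows, distances and overlaps, stronger peaks, and each library alone. Some marker lists are not reported here.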

Additional observations from a re-analysis of the deposited data

How the results depend on the processing

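Over 46 alternative values of the main results, 30 stayed within 1.5 times the value reported, or within its Wilson interval, and 16 did not. No paired analysis was possible because there is 1 group. Among 68 alternatives for single members and motifs 50 stayed within those bounds. The 6 promoter calls held in all but 1 alternative, the 500 bp window, which left 5.

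Keeping peaks at or above their library's median score left 55 shared peaks in the Irx1/Irx2/Irx4 window and 47 in the Irx3/Irx5/Irx6 window. It gave shares of 34.3% for replicate 1 of the second window and 84.8% for replicate 2 of the first. Requiring 50% overlap gave shares of 32.3% for replicate 1 of the second window, and 62.8% and 66.1% for replicate 2 of the first and second. Hotspots at the highest −log10 q-value alone, 100, covered 3.09% and 0.69% of the first window and 3.77% and 0.508% of the second, in replicates 1 and 2. Counted in 1 library, without replicate 1 or without replicate 2, the windows held 145 to 257 and 115 to 229 peaks. The members' 55 distal shared peaks became 86 within 100 kb, 34 by nearest TSS and 78 to 134 in 1 library. By nearest TSS Irx3 had 0, since other starts lie closer. The cause of the other changes was not tested. Unknown depth limits what the absence of a peak shows.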
